A study of Mus musculus with 20 samples.

Results

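Iron storage and handling were followed through 8 genes in immune cells of the mouse eye. The genes were taken by name and not by a rule on their values, but with earlier results of these data known. They are the ferritin chains Ftl1 and Fth1, the iron exporter gene Slc40a1, the haem oxygenase gene Hmox1 and the transferrin receptor gene Tfrc. The others are the divalent metal transporter genes Slc11a1 and Slc11a2 and the ferritin receptor gene Ncoa4. All 8 are among the 25392 genes of the library tables, and 14 of the 20 libraries held transcripts of all 8, while the other 6 libraries held those of 7. The libraries hold CD45+ cells (cells of blood lineage), sorted singly into wells from C57BL/6 mice 8 weeks old that carried no stated allele or agent. They form 5 groups of 4: cornea, ciliary body and control retina, all without laser, and retina taken 3 days or 7 days after a laser lesion. The laser libraries carry the abbreviation CNV in their titles, which in this field usually stands for choroidal neovascularization, a growth of vessels from the choroid into the outer retina. About 6 mice from 3 experiments stand behind the series per the labels, which tie no library to a mouse.

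Cell types are the authors' own. Their retina table names microglia, dendritic cells and a class that joins lymphocytes, granulocytes and monocytes (the joint class), and their table of the unlesioned eye names microglia, macrophages and the joint class. Within a class, transcripts were summed over the 2 libraries that share a title prefix, so each group has 2 sums, called pairs here. Levels are transcripts scaled to a total of 1000000 in the summed cells (CPM), and differences are log2 ratios from edgeR's quasi-likelihood test after TMM scaling, with a Benjamini-Hochberg adjusted p below 0.05 as the threshold. Since pairs may share animals, the spread behind the p-values may be technical.

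The libraries held between 371329 and 3325825 estimated transcripts, and 829 wells carry an annotation, 111 of them in both tables. Microglia numbered 32 and 88 in the pairs of control retina, 30 and 51 in those of day 3, and 63 and 50 in those of day 7. The summed level of 10 microglial markers was between 11470 and 14661 CPM in the 6 pairs of microglia and at most 2144 CPM in macrophages. In the macrophages, 10 macrophage markers summed to between 613 and 1442 CPM, against at most 232 CPM in microglia of the retina, although Folr2 and Cd209f stood at 0 in every macrophage pair. All 10 dendritic cell markers were detected in each pair of dendritic cells. In 3 of the groups 1 library lay apart in Ftl1, with 26 of the microglia at day 7, 15 of the dendritic cells at day 3 and 6 of the cornea macrophages. Values without these libraries are given below where they matter.

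Iron inside a cell is drawn from transferrin through its receptor or from haem that phagocytosed red cells release. What the cell does not use is stored in ferritin, a hollow shell of heavy and light chains, or leaves through ferroportin, the product of Slc40a1 and the known exporter of iron from animal cells. Macrophages take part in both storage and release, and microglia and macrophages around a retinal lesion meet blood and dying cells. Much of this system is set after transcription: iron regulatory proteins bind a hairpin in the RNA, the iron-responsive element, where they hold back translation when it lies before the coding region and protect the RNA from decay when it lies behind it. A transcript level of these genes is therefore not a protein level.

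The hairpin splits the 8 genes, and its letters are shown because they mark which members hold it. In the GENCODE M21 transcripts of mouse genome GRCm38, the 17-base pattern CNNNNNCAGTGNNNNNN, searched in the sense strand with 5 paired stem bases (G-U pairs allowed), lies in the first exon, within the 5′ UTR, of both ferritin chains and Slc40a1. The capitals mark the first 5 bases of the loop, and T stands for U.
Ftl1: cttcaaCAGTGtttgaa
Fth1: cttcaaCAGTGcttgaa
Slc40a1: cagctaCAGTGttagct
The Ftl1 element is at chr7:45459785-45459801 on the minus strand, 83 bases from the start of the transcript. The Fth1 element is at chr19:9982738-9982754 on the plus strand, 92 bases from the start, and the Slc40a1 element at chr1:45925471-45925487 on the minus strand, 95 bases from the start. Tfrc holds 4 such matches, all in exon 19 within its 3′ UTR, on the plus strand.
Tfrc 1: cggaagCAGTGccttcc
Tfrc 2: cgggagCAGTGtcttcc
Tfrc 3: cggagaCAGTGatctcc
Tfrc 4: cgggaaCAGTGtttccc
They lie at chr16:32631225-32631241, chr16:32631604-32631620, chr16:32631669-32631685 and chr16:32631716-32631732. For Slc11a2, a form of the transcript with a 3′ UTR in exon 16 holds a match with 4 of the 5 pairs, cagagcCAGTGtgtttc, at chr15:100395159-100395175 on the minus strand. The pattern with 5 pairs was not found in the UTRs of Hmox1, Slc11a1 and Ncoa4. Over all genes with an annotated 5′ UTR, 28 of 20544 (0.136%) held a 5-pair match there, and 127 of 20937 (0.607%) held one in the 3′ UTR, and these regions differ in length. A match with 4 or 5 pairs lay in the 3′ UTR of 858 of 20937 genes (4.10%), the share that applies to Slc11a2.

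Of the ferritin chains, Ftl1 (the light chain, which helps iron to form its mineral core) was the more variable across the groups. Control microglia had 264 and 196 CPM of Ftl1, a mean of 230 ± 48.0 (SD, n = 2 pairs, 100 transcripts). At day 3 the pairs had 1350 and 1278 CPM (1314 ± 50.6, 624 transcripts), and at day 7 they had 758 and 643 CPM (700 ± 81.1, 347 transcripts). The 3 sets of pairs did not overlap, with control lowest and day 3 highest.

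Ftl1 was higher than in control by 1.95 ± 0.24 (log2 ± SE) at day 3, a 3.86-fold difference with an edgeR adjusted p of 6.75e-05. At day 7 it was higher by 1.39 ± 0.24, or 2.62-fold (edgeR adjusted p = 0.0157). The 2 time points share the control pairs. The difference of day 7 from day 3 was -0.56 ± 0.22 and missed the threshold (edgeR adjusted p = 0.118). Without the 1 library that lay apart at day 7, the mean there was 628 ± 21.6 CPM and the difference from control 1.24 (edgeR adjusted p = 0.0343).

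Fth1, whose heavy chain carries the ferroxidase site that oxidizes ferrous iron, moved in the same direction by less. Its level was 793 and 707 CPM in control microglia (750 ± 60.9), 1984 and 2370 CPM at day 3 (2177 ± 273) and 1586 and 1580 CPM at day 7 (1583 ± 3.56). Neither laser time point overlapped the control, and both pairs at day 3 lay above those at day 7 in CPM. After TMM scaling day 7 differed from day 3 by -0.11 ± 0.21, which was not called (edgeR adjusted p = 0.781). At day 3 the difference from control was 0.95 ± 0.22, or 1.94-fold, with an edgeR adjusted p of 0.00503. Without pair P2 of day 3 it was 0.76 and missed the threshold (edgeR adjusted p = 0.0792). At day 7 it was 0.84 ± 0.22 with an edgeR adjusted p of 0.0989. That value passed the threshold with no filter on low counts (adjusted p = 0.0225), with single libraries (0.0104) and without control pair P1 (0.0327).

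The scaling bears on these folds. Over the 3704 genes tested in microglia, the median log2 difference of day 3 from control was 0.02 after TMM scaling and 0.61 on library totals, the scale of the CPM levels. For day 7 against control the medians were -0.01 and 0.22, and for day 7 against day 3 they were 0.02 and -0.34. On library totals Ftl1 was higher by 2.56 at day 3 and by 1.64 at day 7, Fth1 was higher by 1.57 and by 1.10, with edgeR adjusted p of 0.00803 for the last, and Ftl1 at day 7 was lower than at day 3 by 0.92 on the log2 scale (edgeR adjusted p = 0.00967). The calls for Fth1 at day 7 and for Ftl1 between the time points therefore depend on the scaling.

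**Figure D1:**
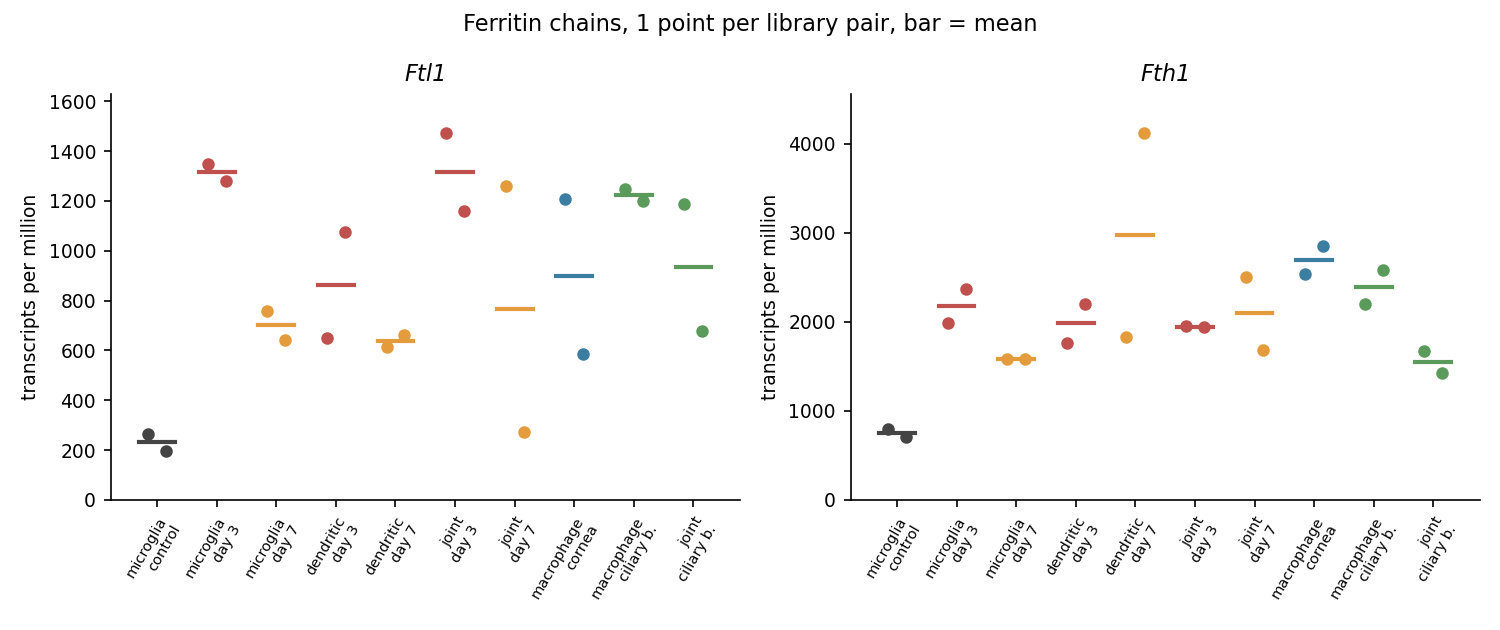
Levels of the ferritin chains Ftl1 and Fth1 in CPM (vertical axes) for 10 groups of cells (horizontal axes), with 1 point per library pair and a bar at the mean. Control microglia are lowest for both genes, at a mean of 230 CPM for Ftl1 and 750 CPM for Fth1, and the pairs of the joint class at day 7 lie far apart in Ftl1, at 1258 and 274 CPM.

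The balance of the chains shifted with the levels. For each Ftl1 transcript, control microglia held 3.0 and 3.6 Fth1 transcripts (3.30 ± 0.424, n = 2 pairs), day 3 microglia 1.47 and 1.85 (1.66 ± 0.269), and day 7 microglia 2.10 and 2.46 (2.28 ± 0.260). The pairs of the 3 groups did not overlap, and no test was made of this ratio. Both chains together made 0.0980% ± 0.0109 of all transcripts in control microglia, 0.349% ± 0.0224 at day 3 and 0.228% ± 0.00840 at day 7.

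Single cells showed the same order. At least 1 Ftl1 transcript was found in 45.8% of 120 control microglia (95% Wilson interval 37.2 to 54.7), 96.3% of 81 at day 3 (89.7 to 98.7) and 83.2% of 113 at day 7. Thinned to 1000 transcripts per cell, which left out no cell, the shares were 18.3%, 61.7% and 46.0%. For Fth1 the shares were 85.8%, 100% and 97.3%, and 49.2%, 77.8% and 74.3% after thinning. The median cell had 0 CPM of Ftl1 in control, 1011 CPM at day 3 and 502 CPM at day 7. Intervals on cells and transcripts cover counting error only.

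A processed copy bears on the Ftl1 counts. The symbol Gm10116 in the tables is an older name of Ftl1-ps1, whose GENCODE M21 sequence shares 756 of the 1389 31-base words of Ftl1, and how shared reads were counted is not given in the sources used here. Gm10116 took 17.9 to 38.1% of the transcripts of both symbols over 22 pair sums, with a median of 30.1%. Its level was 133 ± 17.1 CPM in control microglia, 664 ± 43.6 CPM at day 3 and 293 ± 46.2 CPM at day 7. Counted as 1 gene, both symbols were higher by 1.87 at day 3 (edgeR adjusted p = 7.0e-05) and by 1.22 at day 7 (edgeR adjusted p = 0.0196), and no call on Ftl1 changed in any comparison.

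The authors' clusters of microglia differed in composition between the groups, and the ferritin chains differed within them. Of the control microglia, 117 lay in clusters 3, 4 and 5, and 3 lay in clusters 6, 11 and 14. At day 3 these sets held 36 and 45 cells, and at day 7 they held 70 and 43. Within clusters 3, 4 and 5 Ftl1 was at 220 ± 62.3 CPM in control, 872 ± 78.0 CPM at day 3 and 462 ± 64.6 CPM at day 7. In clusters 6, 11 and 14 it was at 1690 ± 342 CPM at day 3 and 1119 ± 83.9 CPM at day 7. Clusters were made from these same transcripts, so these values are a description, in which day 3 stayed above control within the clusters that held most control cells. Monocyte markers were also higher at day 3 than in control within these clusters, as given below.

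**Figure D2:**
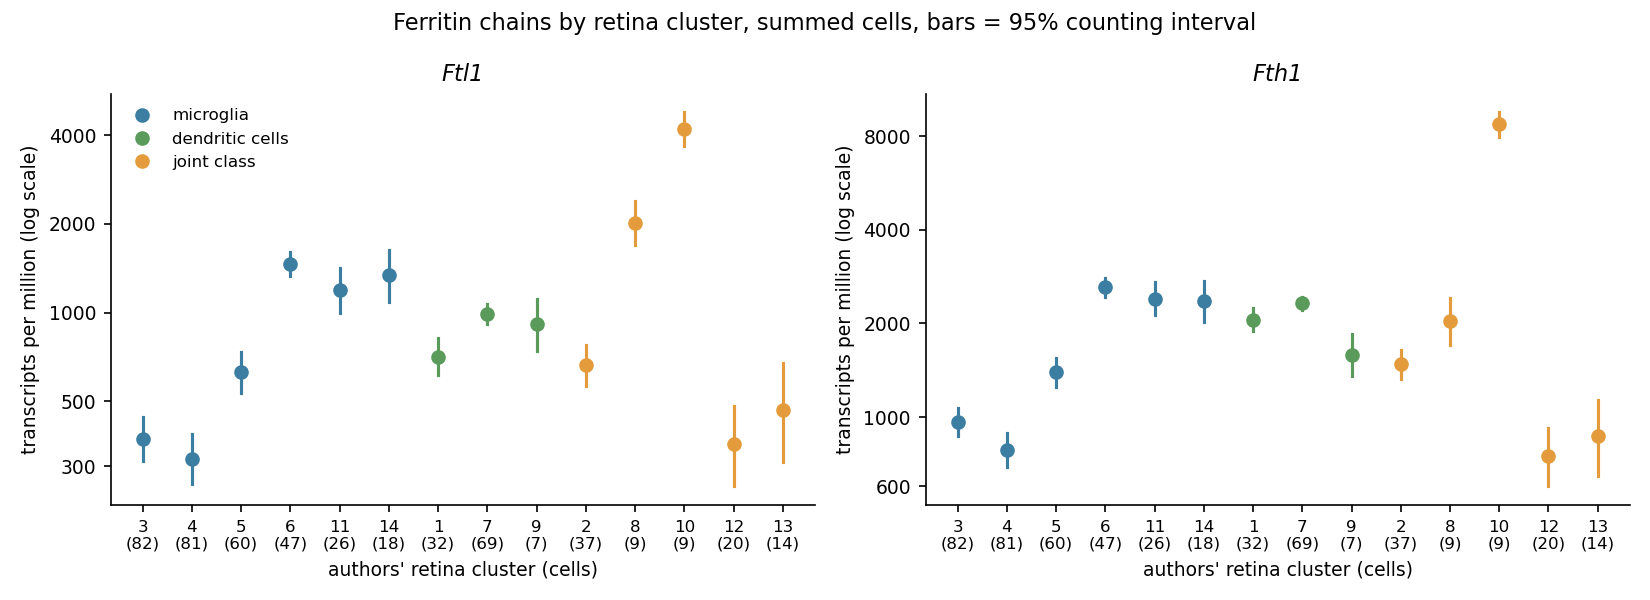
Levels of Ftl1 and Fth1 (vertical log axes, CPM) over the summed cells of each retina cluster of the authors (horizontal axes, number of cells in parentheses), with bars for the 95% counting interval. Cluster 10, which belongs to the joint class, is highest for both chains, at 4214 CPM of Ftl1 and 8742 CPM of Fth1.

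Markers of other cells and RNA quality moved with the microglial groups in part. The summed level of 8 monocyte markers was 19.8 and 29.5 CPM in control microglia, 608 and 773 CPM at day 3 and 167 and 125.7 CPM at day 7. Most of the sum at day 3 was Fn1, the fibronectin gene, at 570 and 441 CPM, while Vcan stood at 0 in all 6 pairs, and Ccr2 was at 12.8 and 106 CPM and Ly6c2 at 12.8 and 83.7 CPM at day 3. The median mitochondrial share of a cell's transcripts was 6.91% and 9.56% in the control pairs, 13.3% and 12.7% in those of day 3 and 10.4% and 10.5% in those of day 7. Their part in the ferritin result was not tested. With mitochondrial genes left out of the totals, Ftl1 was at 1507 CPM at day 3 and 803 CPM at day 7.

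The summed level of 7 red cell markers was 85.9 and 42.5 CPM in control microglia, 89.4 and 15.5 CPM at day 3 and 47.1 and 18.6 CPM at day 7, and Alas2, Slc4a1, Hbb-bt and Hba-a2 were at 0 in all 6 pairs. The groups overlapped. All 12 photoreceptor markers were detected in each pair, and they summed to 2042 and 4050 CPM in control, 1406 and 2232 CPM at day 3 and 4685 and 5491 CPM at day 7, so the day 7 pairs were the highest and the day 3 pairs overlapped control. The 6 markers of Müller glia and astrocytes summed to 734 and 1179 CPM in control, 819 and 3067 CPM at day 3 and 5976 and 6370 CPM at day 7, and within clusters 3, 4 and 5 to 734 and 999 CPM in control and 1929 and 3050 CPM at day 7. Most of the sum at day 7 was Apoe, a lipid carrier gene that macrophages and microglia also express, at 5309 and 5774 CPM. Rlbp1, the gene of a retinaldehyde-binding protein, was at 6.61 and 16.4 CPM in control, 6.39 and 15.5 CPM at day 3 and 65.2 and 65.2 CPM at day 7, and Gfap was at 0 in control and at day 3 and at most 4.65 CPM at day 7. The part of these markers in the ferritin result was not tested.

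Slc40a1, the ferroportin gene, went the other way. Control microglia had 59.4 and 58.9 CPM (59.2 ± 0.384, 27 transcripts), against 12.8 and 21.7 CPM at day 3 (17.2 ± 6.29, 9 transcripts) and 10.9 and 13.96 CPM at day 7 (12.4 ± 2.19, 6 transcripts). Both laser time points lay below control without overlap, and they overlapped each other.

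Slc40a1 passed the filter on low counts through the control pairs, so it could be called only lower than control. At day 3 the difference of Slc40a1 from control was -2.21 ± 0.62 with an edgeR adjusted p of 0.0155. At day 7 it was -2.45 ± 0.67 with an edgeR adjusted p of 0.102, which missed the threshold, and day 7 differed from day 3 by -0.25 ± 0.82 (edgeR adjusted p = 0.876). The call at day 3 was lost on library totals (-1.63, edgeR adjusted p = 0.0575). With fewer pairs it was lost without day 3 pair P1 (-1.90, edgeR adjusted p = 0.0593), without day 3 pair P2 (-2.78, 0.0710) and without control pair P2 (-2.35, 0.252), while the difference stayed between -2.78 and -1.90 with any 1 pair left out. Of 120 control microglia, 26 had a Slc40a1 transcript (21.7%, Wilson interval 15.2 to 29.9), against 9 of 81 at day 3 (11.1%) and 5 of 113 at day 7 (4.42%), although the laser groups had more transcripts per cell, with medians of 3516 in control, 4482 at day 3 and 4138 at day 7. After thinning 4.17%, 2.47% and 0% were left, too few transcripts for an order.

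Of the 8 genes, 4 passed the filter on low counts in microglia, and 2 of these were called higher and 1 lower at day 3, where 22.3% of all tested genes were called, 10.6% higher and 11.6% lower. At day 7 Ftl1 alone was called, as higher, where 0.999% of all tested genes were called and 0.648% were called higher, beside 0.351% called lower. Between day 7 and day 3 none of the 4 was called, against 9.07% of all tested genes. The median log2 difference of the 4 tested members was 0.30 at day 3 and 0.47 at day 7.

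Slc11a1 encodes the metal transporter of the phagosome (NRAMP1), which removes divalent metals from engulfed material and is typical of macrophages. Its level in microglia was 172 and 170 CPM in control, 198 and 201 CPM at day 3, and 228 and 200 CPM at day 7. Its difference from control was -0.35 ± 0.27 at day 3 (95% interval -0.89 to 0.18, edgeR adjusted p = 0.371) and 0.10 ± 0.27 at day 7 (edgeR adjusted p = 0.925). The direction at day 3 depends on the scaling, since the levels in CPM were higher and the difference on library totals was 0.25 (edgeR adjusted p = 0.522).

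The remaining members were too low in microglia for the test. Hmox1, the enzyme that opens haem and frees its iron, was at 13.2 and 16.4 CPM in control, 25.5 and 68.1 CPM at day 3 (26 transcripts) and 14.5 and 13.96 CPM at day 7. Both day 3 pairs were the highest, and they differed from each other by more than the other groups did. Hmox1 was found in 5.83% of cells in control, 23.5% at day 3 and 6.19% at day 7, and in 2.50%, 7.41% and 2.65% after thinning. Tfrc, the receptor for transferrin, was at 13.2 and 9.82 CPM in control (5 transcripts), 31.9 and 27.9 CPM at day 3 (14 transcripts) and 10.9 and 13.96 CPM at day 7 (6 transcripts). Its mean at day 3 was 19.6 CPM when cells were weighted equally, 1.53-fold lower.

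Slc11a2, the transporter (DMT1) that moves iron out of the endosome, was at 13.2 and 16.4 CPM in control microglia, 12.8 and 15.5 CPM at day 3 and 39.8 and 13.96 CPM at day 7, so the groups overlapped. Ncoa4, which delivers ferritin to the lysosome, was at 6.61 and 22.9 CPM in control (8 transcripts), with 1 transcript at day 3 and 1 at day 7. The ratio of its transcripts at day 3 to control was 0.119 with a 95% counting interval from 0.00268 to 0.888. At day 7 it was 0.116 (0.00262 to 0.868). These intervals take no account of the spread between pairs. The processed pseudogene Gm6768, which was counted under its own symbol, shares 1786 of the 9572 31-base words of Ncoa4. Its part in the low Ncoa4 counts was not tested.

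**Figure D3:**
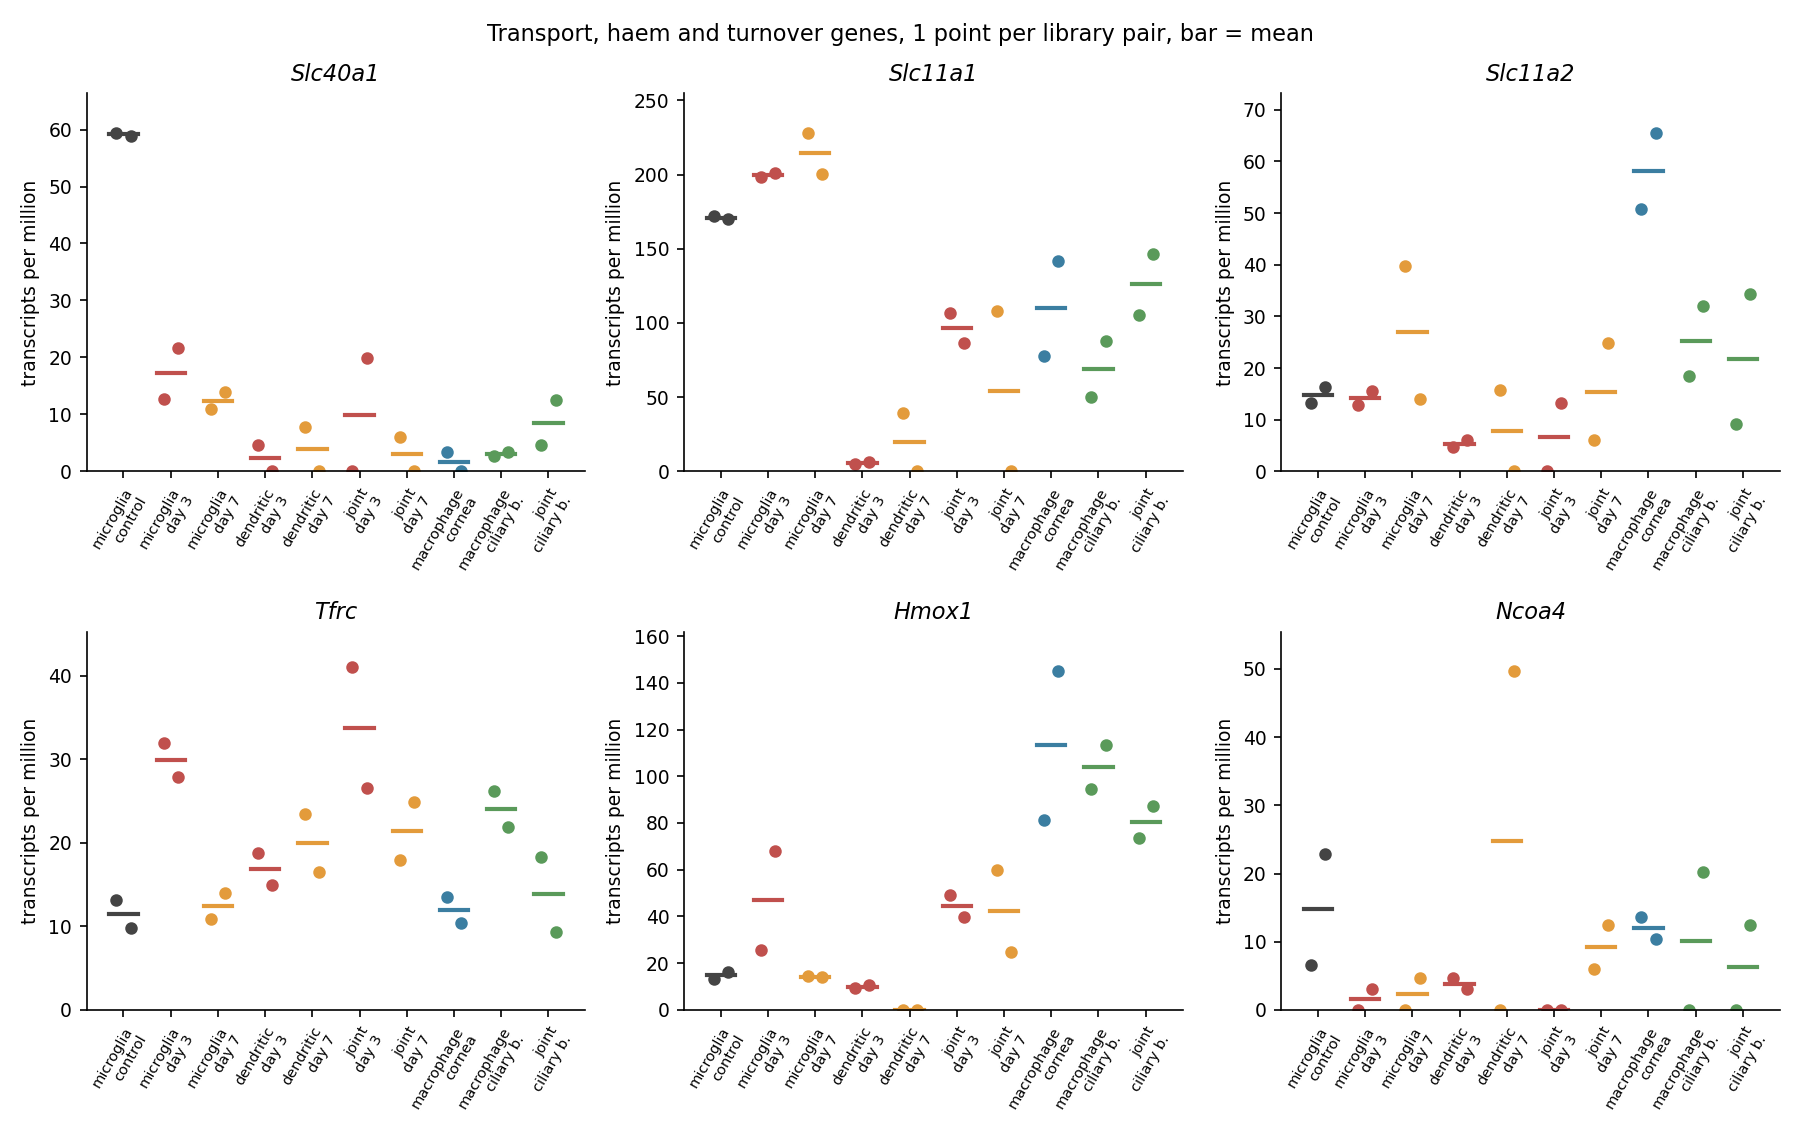
Levels of the 6 members other than ferritin in CPM (vertical axes, each with its own scale) for the same 10 groups of cells, with 1 point per library pair and a bar at the mean. Slc40a1 is highest in control microglia at 59.4 and 58.9 CPM, Slc11a1 is high in the 3 microglial groups and near 5 CPM in dendritic cells at day 3, and Hmox1 is highest in the macrophages of cornea and ciliary body.

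In the unlesioned eye, macrophages of the cornea and the ciliary body were set against the retina's microglia from the same table, of which there were 33 and 86 cells. Ftl1 was at 256 and 158 CPM in these microglia (207 ± 69.3), 1209 and 587 CPM in the 56 and 65 cornea macrophages (898 ± 440), and 1247 and 1200 CPM in the 39 and 72 ciliary body macrophages (1223 ± 33.3). Both macrophage groups lay above the microglia without overlap. The cornea pairs were far apart, and 1 cornea macrophage with 101 Ftl1 transcripts of 5720 held 19.2% of the group's Ftl1.

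Ftl1 was higher than in microglia by 1.71 ± 0.40 in cornea macrophages (edgeR adjusted p = 0.00447) and by 2.24 ± 0.40 in ciliary body macrophages (edgeR adjusted p = 0.000716). Without the cornea library that lay apart, the cornea level was 710 ± 174 CPM and the difference 1.31 (edgeR adjusted p = 0.0214). Without cornea pair P2 the difference was 1.11 (edgeR adjusted p = 0.0630), and without microglia pair P2 it was 1.40 (edgeR adjusted p = 0.0796), so the cornea call rests on those pairs. Counted with its copy Gm10116, Ftl1 was higher by 1.56 in the cornea (edgeR adjusted p = 0.0161) and by 2.08 in the ciliary body (edgeR adjusted p = 0.00341).

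Fth1 was at 755 and 671 CPM in microglia (713 ± 59.1), 2541 and 2856 CPM in cornea macrophages (2699 ± 223) and 2198 and 2583 CPM in ciliary body macrophages (2391 ± 272). It was higher than in microglia by 1.47 ± 0.31 in the cornea (edgeR adjusted p = 0.00205) and by 1.40 ± 0.30 in the ciliary body (edgeR adjusted p = 0.00297). The second call was lost without microglia pair P2 (edgeR adjusted p = 0.0604). Ferritin chains made 0.360% of all transcripts in cornea macrophages and 0.361% in ciliary body macrophages, beside the 0.349% of day 3 microglia.

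Hmox1 showed the largest excess over microglia among the tested members. It was at 12.4 and 12.5 CPM in microglia (6 transcripts), 81.4 and 145 CPM in cornea macrophages (113 ± 45.0, 66 transcripts) and 94.6 and 113 CPM in ciliary body macrophages (104 ± 13.2, 103 transcripts). The macrophage pairs were all above those of microglia. The differences from microglia were 2.72 ± 0.55 in the cornea, or 6.58-fold (edgeR adjusted p = 0.00152), and 2.71 ± 0.54 in the ciliary body (edgeR adjusted p = 0.00135). With 6 transcripts in microglia, Hmox1 passed the filter on low counts through the other groups, so it could be called only higher. The macrophages were not alike: in the authors' clusters of the unlesioned eye, Hmox1 stood at 289 CPM in cluster 7, and at 15.5 and 13.4 CPM in the macrophage clusters 1 and 3.

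Slc40a1 transcripts were scarce in these macrophages. Microglia held 27 transcripts, at 56.1 and 55.7 CPM, cornea macrophages 1 transcript, at 3.39 and 0 CPM, and ciliary body macrophages 3 transcripts, at 2.63 and 3.38 CPM. The ratio of summed transcripts to microglia was 0.0306 in the cornea (95% counting interval 0.000748 to 0.186) and 0.0552 in the ciliary body (0.0107 to 0.180). The edgeR adjusted p was 0.00274 for the cornea and 0.00253 for the ciliary body. Slc40a1 passed the filter on low counts only through the microglia, so a call could only have been that it was lower in macrophages. Leaving out microglia pair P2 took both calls away (-5.16 and -4.38, edgeR adjusted p = 0.0856 and 0.116), as did leaving out pair P1 for the ciliary body (-4.24, 0.0538). With any 1 pair left out the log2 difference stayed between -4.42 and -4.15 for the ciliary body, beside -4.36 with all pairs, and between -7.42 and -4.17 for the cornea. The median cell held 8364 transcripts in ciliary body macrophages and 3632 in these microglia, and the part of depth in the difference was not tested.

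Slc11a1 was lower in macrophages than in microglia. It was at 169 ± 7.55 CPM in microglia, 78.0 and 142 CPM in cornea macrophages, and 49.9 and 87.8 CPM in ciliary body macrophages, with no overlap. The difference was -1.61 ± 0.40 in the ciliary body (edgeR adjusted p = 0.00667) and -1.07 ± 0.40 in the cornea, which missed the threshold (edgeR adjusted p = 0.0503). The ciliary body call was lost without pair P3 of those macrophages (edgeR adjusted p = 0.104) and without either microglia pair (0.0602 and 0.0516), with differences between -1.98 and -1.20 over the pairs left out. The cornea value passed with DESeq2 size factors (edgeR adjusted p = 0.0482), with single libraries (0.00613), with filtered wells (0.0365) and without the library that lay apart (0.0347). On library totals it was smaller, at -0.63 (edgeR adjusted p = 0.246), and it ranged from -1.40 to -0.66 with 1 pair left out.

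Among the annotated groups plotted for these genes, Slc11a2 was highest in cornea macrophages, at 50.8 and 65.6 CPM (58.2 ± 10.4), above the pairs of the other 9. It was not particular to them in the cornea: wells there without an annotation held 87.9 and 50.2 CPM in the pairs (196 and 289 transcripts). The 5 cells of the cornea's joint class held 2 transcripts, at 87.5 CPM. Slc11a2 was at 18.4 and 32.1 CPM in ciliary body macrophages and 12.5 and 18.6 CPM in microglia. Its difference between cornea macrophages and microglia was 1.38 ± 0.66 (edgeR adjusted p = 0.119), and on library totals it was 1.80 and passed the threshold (edgeR adjusted p = 0.0363). Tfrc and Ncoa4 were not tested, with at most 26.3 CPM of Tfrc and 20.3 CPM of Ncoa4 in a macrophage pair.

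For the cornea, 3 of 6 tested members were called higher than in microglia and 1 lower, where 29.6% of all tested genes were called, 16.3% higher and 13.4% lower. For the ciliary body, 3 were called higher and 2 lower, where 24.6% were called, 15.1% higher and 9.56% lower. Both comparisons share the microglia. Their scaling differed too: the median of all 4949 tested genes was 0.15 for the cornea and 0.04 for the ciliary body after TMM, and 0.56 and 0.35 on library totals. Cornea and ciliary body macrophages were also compared with each other, and none of the 6 tested members was called, against 1.82% of all tested genes. In that comparison Ftl1 differed by -0.53 ± 0.37 and Slc11a2 by 1.05 ± 0.53 (edgeR adjusted p = 0.385). Corneal epithelium markers (6 genes) summed to 12686 and 18088 CPM in cornea macrophages against at most 1185 CPM in the other macrophages, and their part in the levels there was not tested.

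**Figure D4:**
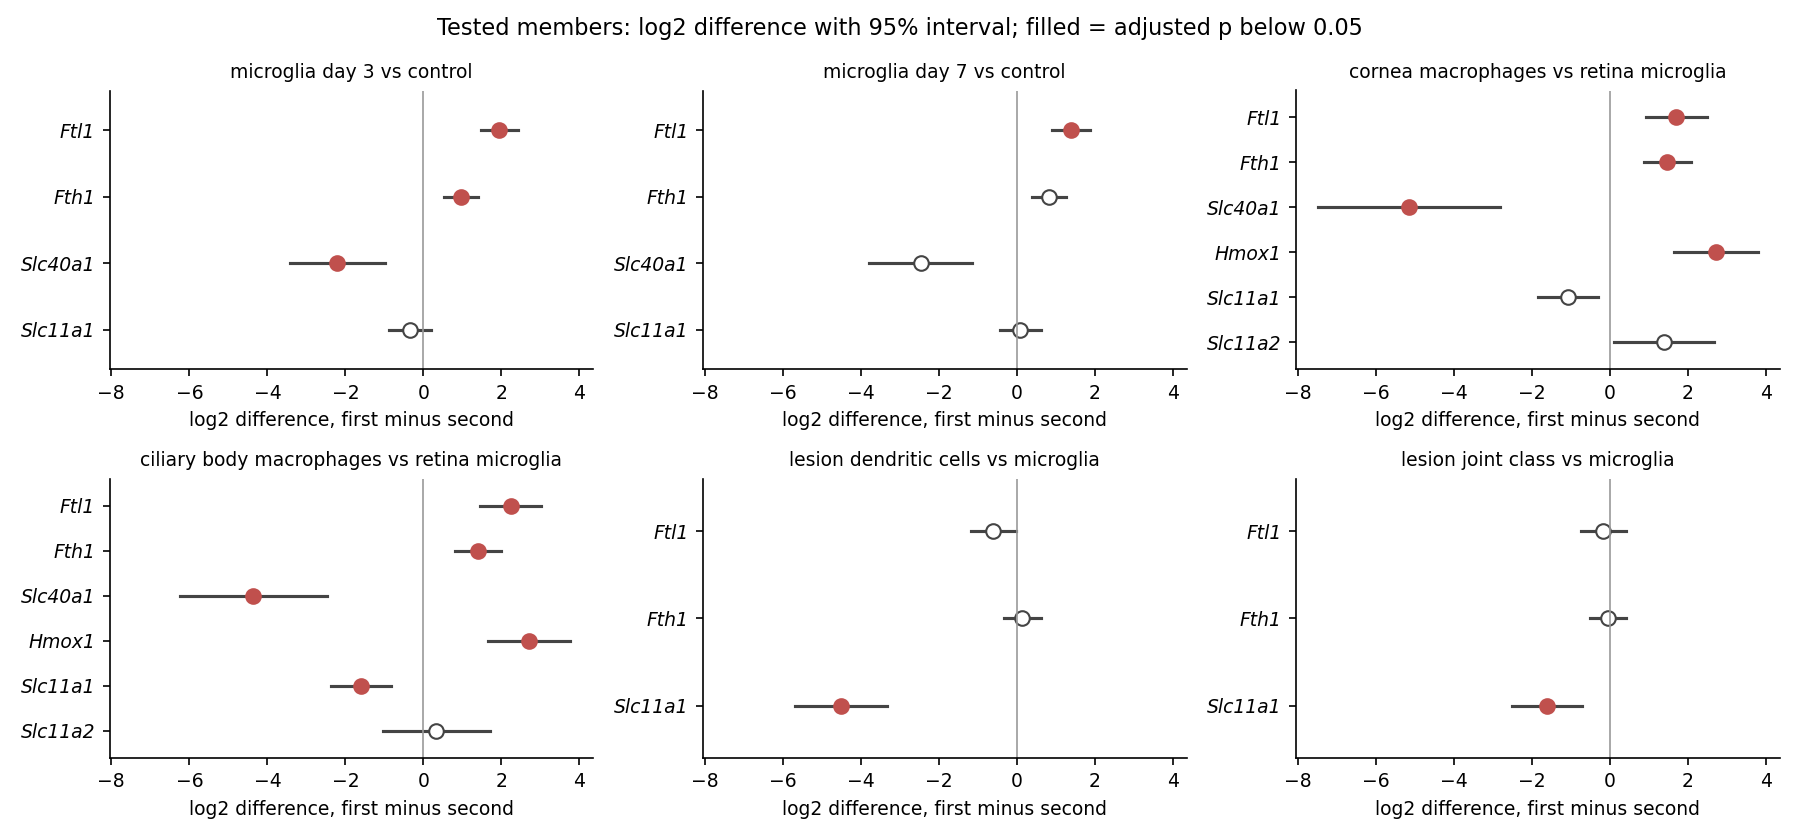
Differences of the tested members in 6 comparisons (horizontal axes, log2 of the first group over the second after TMM scaling, with a normal 95% interval from the SE), filled where the edgeR adjusted p was below 0.05. These intervals are narrower than the quasi-likelihood test allows. For Ftl1 in dendritic cells the interval runs from -1.18 to -0.019, with an unadjusted edgeR p of 0.0608. In the panels for microglia at day 3 and for both macrophage groups the ferritin chains lie right of 0 and Slc40a1 left of it, and the panel for dendritic cells shows Slc11a1 at -4.50.

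In the lesioned retina, dendritic cells and the joint class were compared with microglia of the same pairs at both time points. Slc11a1 separated them. Dendritic cells had 4.70 and 6.00 CPM at day 3 and 39.2 and 0 CPM at day 7, where the pairs held 16 and 10 cells, and microglia had 198 to 228 CPM. The difference was -4.50 ± 0.60 (edgeR adjusted p = 3.01e-05). A Slc11a1 transcript was found in 5 of 82 dendritic cells at day 3 (6.10%), against 51 of 81 microglia (63.0%), although the dendritic cells had a median of 10294 transcripts and the microglia 4482.

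The joint class had 107 and 86.4 CPM of Slc11a1 at day 3 and 108 and 0 CPM at day 7, and its difference from microglia was -1.61 ± 0.46 (edgeR adjusted p = 0.0183). That call was lost without pair P2 of day 3 (edgeR adjusted p = 0.0574). By the authors' second cell type call, the joint class was uneven: its 47 lymphocytes had 25.03 CPM of Slc11a1, its 13 monocytes 164 CPM and its 14 unassigned cells 268 CPM.

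The ferritin chains were not called between the classes. Dendritic cells had 650 and 1073 CPM of Ftl1 at day 3 and 612 and 663 CPM at day 7, and the joint class had 1471 and 1159 CPM and then 1258 and 274 CPM. In Ftl1, dendritic cells differed from microglia by -0.60 ± 0.30 (edgeR adjusted p = 0.144, and 0.0320 with single libraries) and the joint class by -0.17 ± 0.29. In Fth1 the differences were 0.15 ± 0.24 and -0.05 ± 0.24. At day 3, 1 dendritic cell held 153 Ftl1 transcripts of 12317, which is 17.9% of the group's Ftl1, and without the library that lay apart the day 3 pairs had 650 and 654 CPM. Of 3 tested members, 1 was called lower in dendritic cells and 1 in the joint class, where 30.9% and 24.1% of all tested genes were called. For dendritic cells these were 15.7% higher and 15.3% lower, and for the joint class 11.3% higher and 12.9% lower.

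Within dendritic cells no tested member was called between day 7 and day 3, where 0.0551% of all tested genes (2 of 3630) were called. Fth1 was at 1763 and 2204 CPM at day 3 and 1828 and 4127 CPM at day 7, a difference of 0.59 ± 0.30 (edgeR adjusted p = 0.664), with the 4127 CPM in a pair of 10 cells. Within the joint class no member was called either, against 1.4% of all tested genes, and Ftl1 differed by -0.69 ± 0.50. Tests of whether the change between the time points differed between the classes called no member. For Ftl1 the difference of changes was 0.02 for dendritic cells against microglia and -0.39 for the joint class against microglia (edgeR adjusted p = 1 and 0.837).

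A small cluster carried much of the joint class's iron transcripts. Retina cluster 10 of the authors held 9 cells, 4 from day 3 and 5 from day 7, spread over 6 libraries. The second call named 3 of them lymphocytes, 1 a granulocyte and 1 a monocyte, and left 4 unassigned. It had the highest levels of the 14 retina clusters, at 4214 CPM of Ftl1, 8742 CPM of Fth1, 350 CPM of Hmox1 and 368 CPM of Slc11a1. Among its leading genes were Gpnmb at 1484 CPM, Lgals3 at 2570 CPM and Cdkn1a at 999 CPM, the genes of a lysosomal glycoprotein of macrophages, of galectin-3 and of a cell cycle inhibitor. Gpnmb and Cdkn1a were each found in 4 of the 9 cells and Lgals3 in 7. The granulocyte markers S100a8 and S100a9 were also among the leading genes, at 480 and 461 CPM, in 2 and 1 of the cells. The cluster was thus mixed.

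Without these 9 cells, the joint class at day 7 had 364 and 166 CPM of Ftl1, 691 and 1062 CPM of Fth1 and no Slc11a1 transcript, while at day 3 it had 1429 and 923 CPM of Ftl1 and 24 transcripts of Slc11a1. The difference of day 7 from day 3 then became -2.04 for Ftl1 (edgeR adjusted p = 0.000750) and -0.98 for Fth1 (edgeR adjusted p = 0.0743), and Slc11a1 was at least 6.58-fold lower, with 3 transcripts taken as the floor over the group (edgeR adjusted p = 0.00362), where 3.69% of all tested genes were called lower. With cluster 10 kept and any 1 pair left out, the Ftl1 difference ranged from -2.30 to -0.046. The -2.30 was without pair P1 of day 7, which held 26 cells, 22 of them outside cluster 10. Leaving out that pair is therefore not separate from leaving out the cluster. The removal of cluster 10 was chosen after its values were seen. The joint class mixes kinds of cells that differ in these genes, and their mix at each time point is not given here. A change in the mix cannot be told apart here from a change within cells.

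In the ciliary body the joint class (27 and 46 cells) had 1187 and 678 CPM of Ftl1, 1671 and 1427 CPM of Fth1, 73.4 and 87.4 CPM of Hmox1 and 106 and 147 CPM of Slc11a1. No tested member was called against the macrophages of the same tissue, against 2.89% of all tested genes. Fth1 differed by -0.59 ± 0.30 (edgeR adjusted p = 0.425) and Slc11a1 by 0.93 ± 0.39 (edgeR adjusted p = 0.295). The joint class of the cornea held 5 cells and that of control retina 2, and neither was compared.

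The rest of the pathway was read from lists of genes of iron and haem. At day 3 the counts of called genes stand beside 22.3% of all tested genes called in microglia, 10.6% higher and 11.6% lower, and with so few tested genes per list nothing particular to a list was read from them. In microglia at day 3, of 16 genes of iron entry, reduction and chaperoning 6 were tested, 1 was called higher and 1 lower, with a median difference of 0.28 beside 0.02 over all genes. Slc39a14, a plasma membrane importer of iron that is not bound to transferrin, was at 70.3 and 71.2 CPM at day 3 (34 transcripts), against 1 transcript in control and 1 at day 7. Its ratio of transcripts was 32.4 to control (95% counting interval 5.44 to 1317) and 34.8 to day 7 (5.84 to 1415). The edgeR adjusted p was 0.0109 against control and 0.0131 against day 7. Both comparisons share the day 3 pairs, so they are not separate results. Slc39a14 passed the filter on low counts through those pairs, and it was named because it was among the called genes of its list. Trf, the gene of the carrier transferrin, was at 232 and 264 CPM in control, 95.8 and 235 CPM at day 3 and 337 and 419 CPM at day 7, so the day 3 and control pairs overlapped. After TMM scaling it was lower at day 3 than in control by 1.06 ± 0.34 on the log2 scale (edgeR adjusted p = 0.0349) and higher at day 7 than at day 3 by 1.44 ± 0.33 (edgeR adjusted p = 0.0125). Markers of photoreceptors and of Müller glia and astrocytes were also higher at day 7 than at day 3, as given above, and their part in the Trf levels was not tested.

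Of 16 antioxidant genes 6 were tested in microglia, and at day 3 Txn1 (thioredoxin) was higher by 1.78 ± 0.37 (edgeR adjusted p = 0.00249), Prdx1 (peroxiredoxin) was higher by 1.44 ± 0.30 (edgeR adjusted p = 0.00290) and Mafg was lower by 1.16 ± 0.37 on the log2 scale (edgeR adjusted p = 0.0331), with a median of 0.45 over the 6. At day 7 Txn1 was lower than at day 3 by 1.17 ± 0.33 on the log2 scale (edgeR adjusted p = 0.0314). Lrp1, a scavenger receptor that takes up haem bound to haemopexin, was higher at day 3 by 0.80 ± 0.26 (edgeR adjusted p = 0.0318), 1 of 2 tested genes among the 12 of haem uptake, breakdown and export. None of the 5 tested genes of iron sensing and none of the 6 of ferritin turnover was called, none of the 5 iron export genes passed the filter, and the 1 tested gene of haem synthesis was not called. Against control, no gene of these lists was called at day 7.

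Of 12 antioxidant genes tested in the macrophages, 8 were called higher than in microglia in the cornea, where 16.3% of all tested genes were, and 6 in the ciliary body, where 15.1% were, with none lower, with medians of 2.15 and 1.60 beside 0.15 and 0.04 over all genes. Sqstm1, an autophagy receptor, was at 665 and 1078 CPM in cornea macrophages and 773 and 861 CPM in ciliary body macrophages, against 77.7 ± 13.6 CPM in microglia, differences of 3.06 ± 0.35 (edgeR adjusted p = 1.12e-05) and 3.08 ± 0.35 (edgeR adjusted p = 1.13e-05). Nfe2l2, which encodes the transcription factor NRF2, was higher by 1.33 ± 0.31 in the cornea and 1.56 ± 0.31 in the ciliary body (edgeR adjusted p = 0.00448 and 0.00151), the 1 gene of 5 tested for iron sensing that was called. The median difference of those 5 was 0.72 in the cornea and -0.79 in the ciliary body. Hmox1 itself is a textbook target of NRF2 and BACH1, and it is no member of the antioxidant list. The part of NRF2 in these levels was not tested.

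Slc48a1, which brings haem out of the phagolysosome, was higher by 1.79 in the cornea and 1.73 in the ciliary body (edgeR adjusted p = 0.0323 and 0.0391). Lrp1 was lower by 1.57 and by 1.41 on the log2 scale (edgeR adjusted p = 0.00497 and 0.00806). Trf was called lower in the cornea, by 1.05 ± 0.31 on the log2 scale (edgeR adjusted p = 0.0178), and was not called in the ciliary body. Herc2, part of a ligase for NCOA4, was at 118 ± 44.6 CPM in microglia, 27.4 ± 5.19 CPM in cornea macrophages and 42.9 ± 8.63 CPM in ciliary body macrophages, and was called lower in both (edgeR adjusted p = 0.000916 and 0.00522).

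In lesion dendritic cells Lrp1 was lower than in microglia by 4.58 ± 0.56 on the log2 scale (edgeR adjusted p = 1.41e-05) and Trf by 2.11 ± 0.47 (edgeR adjusted p = 0.00272). Prdx6, a peroxiredoxin, was higher by 2.03 ± 0.30 (edgeR adjusted p = 6.3e-05), and Hfe, whose product binds the transferrin receptor, by 1.22 ± 0.31 (edgeR adjusted p = 0.00562). In the joint class Lrp1 was lower by 2.35 ± 0.47 and Trf by 2.53 ± 0.52 on the log2 scale (edgeR adjusted p = 0.00149 and 0.00196), while Prdx6 and Txn1 were higher by 1.50 ± 0.32 and 1.12 ± 0.29 (edgeR adjusted p = 0.00221 and 0.00814).

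For the 3 members of at least 100 CPM in the tested groups, the genes with the most similar pattern over 10 groups of cells were listed by Pearson's r of log2(CPM + 10), among 2531 genes. These groups share libraries and depth, so the values describe these libraries only. Ftl1 was most like its copy Gm10116 (r = 0.96), and also near it were Eif2ak2 (0.92), Snrpb (0.90) and Atp6v1b2 (0.90). Fth1 was most like Eif2s3x (0.96), Tbca (0.96), Rpl23 (0.93), Rpl10a (0.93) and Eef1b2 (0.92). Among the genes most like Slc11a1 were Zeb2 (0.93), Pla2g15 (0.90), Slc7a8 (0.90) and Timp2 (0.90).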

How the data were processed

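CD45+ cells were sequenced singly by mCEL-Seq2, whose molecular identifiers let transcripts be counted, per the labels' protocols. The aligner was BWA 0.6.2-r126, per the submitters' processing notes, with genome build, annotation and counting rules not given in the sources used here. The authors deposited estimated counts per gene and well, not normalized. The deposited annotation holds other values, a class and a cluster per well. Wells were matched by name, and each member's values over 511 retina and 420 eye cells equalled those of 1 row of the unnormalized tables within 1e-06 transcripts. Of their columns, 9 were not used, and these cells' values came from the library tables.

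Estimated counts were summed per class and library pair, rounded and compared with edgeR 4.0.16 (filterByExpr, TMM, robust quasi-likelihood) in R 4.3.3, adjusted over all tested genes. The SE is the unshrunk log2 ratio over the root of F. Each fit was tested on simulated data. Alternatives were another scaling, DESeq2 1.42.0, no filter, single libraries, filtered wells (at least 1000 transcripts and at most 25% mitochondrial), the second call, wells without photoreceptor RNA, a prefix block and each pair left out. Named genes are the 8 members, up to 4 called genes per list and the 5 nearest patterns. Some genes that this rule names are not reported here. Members and lists were chosen with earlier results of these data known. Same-prefix deviations correlated at 0.016, 0.192 and -0.074 in microglia, so prefixes were not taken as pairs. Annotated cells entered whether or not they passed the filter on wells.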

Additional observations from a re-analysis of the deposited data

Results flagged for a closer look

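In 39 sets of 4 libraries, 4 had a highest library whose gap to the others was large for the range of the set, where chance gives about 1 in 20. Ftl1 in microglia at day 7 was at 931 CPM in 1 library against 612 to 666 CPM in the others. Ftl1 in dendritic cells at day 3 was at 2074 CPM in a library of 15 cells against 587 to 782 CPM. Ftl1 in cornea macrophages was at 2781 CPM in a library of 6 cells against 538 to 833 CPM. Slc11a1 in the joint class of the ciliary body was at 189 CPM against 103 to 109 CPM.

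Wells that passed the filter but carry no annotation also held ferritin transcripts, with Ftl1 above control retina at both time points and Fth1 above it at day 3. Ftl1 was at 675 CPM (565 and 784 in the pairs, 107 wells) at day 3 and at 168 CPM (138 and 198) at day 7, against 66.3 to 125 CPM in the pairs of control retina. Fth1 was at 888 CPM (823 and 954) at day 3 against 594 to 683 CPM in control, and at 608 and 811 CPM in the pairs at day 7, the lower of them within the control range. The kind of cell in these wells is not known.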

How the results depend on the processing

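Counts of called genes moved most. With DESeq2 they were 323 of the 825 at day 3 against control, 19 of 37 at day 7, 90 of 336 between the time points, 37 of 90 between cornea and ciliary body, 858 of 1466 and 670 of 1219 for cornea and ciliary body against microglia, 67 of 143 for the ciliary body's joint class and 31 of 51 for the retinal joint class between the time points. With no filter they were 301 between cornea and ciliary body, 326 for the ciliary body's joint class, 981 instead of 638 for the lesion joint class against microglia, 23 instead of 2 for dendritic cells between the time points and 105 for the joint class. Single libraries gave 142 at day 7, 168 between cornea and ciliary body, 9 for dendritic cells and 80 for the joint class between the time points. The second call gave 19 at day 7 and 179 between the time points, library totals gave 136 and 538, filtered wells gave 8 for dendritic cells, leaving out the libraries that lay apart 6, and leaving out cluster 10 gave 161 for the joint class. A replicate block gave 7 for dendritic cells between the time points (title prefix) and 234 for the ciliary body's joint class (library pair), and changed no member's call.

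Leaving out 1 pair at a time gave 434 to 861 at day 3, 43 to 89 at day 7, 142 to 315 between the time points, 19 to 151 between cornea and ciliary body, 697 to 1070 and 586 to 866 against microglia, 77 to 170 for the ciliary body's joint class, 635 to 728 and 452 to 558 for lesion dendritic cells and joint class, and 0 to 13 and 17 to 89 for these between the time points. A lone pair is then assumed to vary like the other groups.

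Directions turned only for differences that were not called: Slc11a1 at day 3 (0.25 on library totals), Slc40a1 between the time points (0.016 without wells rich in photoreceptor RNA), Fth1 (-0.039 without the libraries apart) and Hmox1 (-0.022 with no filter) between cornea and ciliary body, Fth1 of dendritic cells against microglia (-0.046 with single libraries), Ftl1 and Fth1 of the joint class against microglia (0.010 and 0.13 on library totals), Ftl1 of dendritic cells between the time points (0.0059 without the library apart) and Fth1 of the joint class (-0.98 without cluster 10). With 1 pair left out, the ranges were as follows. In microglia they were -0.0050 to 0.16 for Slc11a1 at day 7 and -0.31 to 0.090 (Fth1) and -0.54 to 0.33 (Slc40a1) between the time points. Between cornea and ciliary body they were -0.016 to 0.17 (Fth1), -3.15 to 0.091 (Slc40a1) and -0.40 to 0.32 (Hmox1). For Slc11a2 they were -0.043 to 0.72 for the ciliary body against microglia and -1.66 to 0.58 for its joint class. Against microglia they were -0.15 to 0.26 for Fth1 in dendritic cells, -0.36 to 0.17 for Ftl1 and -0.17 to 0.043 for Fth1 in the joint class. Between the time points they were -0.83 to 0.025 (Ftl1), -0.076 to 0.96 (Fth1) and -3.43 to 2.70 (Slc11a1) in dendritic cells, and -0.27 to 0.37 (Fth1) and -7.32 to 0.18 (Slc11a1) in the joint class. The cause was not tested. Of the members' differences, 525 values kept their direction and side of the threshold, 15 lost a call and 15 gained one. Tfrc, Ncoa4 and, in the retina, Hmox1 and Slc11a2 had too few transcripts for a test.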

Other observations

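By the authors' second call within the joint class of the retina, the ferritin chains differed between kinds of cells: Ftl1 was at 683 CPM and Fth1 at 1785 CPM in 47 lymphocytes, 1258 and 2164 CPM in 13 monocytes, and 2492 and 3117 CPM in 14 unassigned cells, which also held 156 CPM of Hmox1. These sums run over cells of several libraries and were not tested. In the unlesioned eye, cluster 10 of the authors had 3474 CPM of Fth1 and 1575 CPM of Ftl1, and cluster 16 had 255 CPM of Slc11a1, against 23.2 and 10.7 CPM in the macrophage clusters 1 and 3.

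Over single cells of a group, Pearson's r between Ftl1 and Fth1 was taken on counts thinned to the depth used for the shares above. It was 0.09 in 120 control microglia, 0.50 in 81 at day 3 and 0.30 in 113 at day 7. After thinning, control microglia held means of only 0.25 Ftl1 and 0.75 Fth1 transcripts per cell. The part of such low counts in the control r was not tested. In cornea macrophages r was 0.58, beside a Spearman's rho of 0.14, in 121 cells. These cells share libraries and depth.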
